A study of Mus musculus with 7 samples.

Results

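The subunits of the GABA and glycine receptors carried low methylation in both brain arrays at 63.6% of their probes, close to the 66% of all probes on the array, and 4 of the 8 exceptions were among the 5 GABA-A subunits outside the alpha, beta and gamma classes. Of these 4, Gabrp lay below its own Met_0 control value in both arrays, and Gabre exceeded the limit of 0.2 in A2B5_mas alone. Beta values are not calibrated between probes, and read off each probe's own Met curve 21 of 22 were low. The 22 receptor probes, of 382 on the array, were chosen by symbol: every symbol starting with Gabr, Gabbr, Glra or Glrb. Each stands for a different gene, and the set comprises 5 alpha, 3 beta, 3 gamma and 5 other GABA-A subunits, both GABA-B subunits and 4 glycine receptor subunits. Values are methylation levels (beta values), the fraction of signal from the methylated state at a single CpG, from 0 for unmethylated to 1 for methylated DNA.

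The data comprise 7 custom Illumina GoldenGate arrays of bisulphite-converted genomic DNA, all labelled as mouse strain C57BL/6. The A2B5_mas and PSA-NCAM_mas arrays carry the tissue label brain, and 5 arrays titled Met_0, Met_25, Met_50, Met_75 and Met_100 carry the tissue label DNA. The first title names a ganglioside epitope used to mark cells of the glial lineage, and the second a polysialylated adhesion molecule carried by young migrating neurons. The labels give neither the isolation of these samples nor brain region, age or sex, and the Met numbers were read as nominal percent methylation, which the labels do not spell out. With 1 array per title, differences between the brain arrays have no replicate check and no p-value. As a yardstick, the scatter of Met_50 about the midpoint of its neighbours in the series corresponded to an SD of 0.0231 for 1 array and 0.0326 for a difference between 2 arrays, over the 331 probes that climbed by at least 0.3. Curvature of the probes' response is contained in it. It was taken from Met_25 to Met_75, with medians of 0.541 to 0.667 over all probes, so it need not hold for probes at low levels. The tissue label could not be checked by expression, since DNA methylation was measured. Of the markers listed for each cell type, the array held 2 of 8 for neurons, 2 of 6 for astrocytes, 5 of 8 for oligodendrocytes, 1 of 6 for microglia and blood and 1 of 5 for endothelium.

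GABA is the main inhibitory transmitter of the adult brain. GABA-A receptors are pentameric chloride channels of the Cys-loop family, assembled mostly from alpha, beta and gamma subunits, while GABA-B receptors are heterodimers that signal through G proteins. Glycine receptors are Cys-loop chloride channels that dominate inhibition in spinal cord and brainstem. Promoters rich in CpG dinucleotides are usually unmethylated, whereas promoters poor in CpG are more often methylated in tissues that do not use the gene.

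Promoter sequences are shown for the receptor genes at both ends of the brain methylation range, to show their CpG content. RefSeq promoters of the mouse assembly GRCm38.p6 ran from 250 bases before to 50 after a gene's start. They were looked up for the 19 genes reported singly and found for 17 of them. Where a gene had several starts, the most upstream was taken. The position of the probed CpG relative to these windows is not stated, so a measured CpG may lie outside them. Glrb and Gabrb2 had the lowest mean brain beta value of the 17 genes, and Gabrr1 and Gabrp the highest. Gabra6 and the X-linked Gabrq, which follow Gabrr1 and Gabrp in level, were added after their values were seen. CpG dinucleotides are in capitals.
Glrb, chr3:80913611-80913910, minus strand: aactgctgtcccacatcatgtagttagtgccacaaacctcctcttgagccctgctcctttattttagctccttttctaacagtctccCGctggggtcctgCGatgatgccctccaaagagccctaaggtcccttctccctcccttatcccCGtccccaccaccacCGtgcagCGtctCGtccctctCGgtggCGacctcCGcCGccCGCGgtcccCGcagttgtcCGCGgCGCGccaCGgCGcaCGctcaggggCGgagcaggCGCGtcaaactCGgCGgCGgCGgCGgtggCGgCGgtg
Gabrb2, chr11:42420190-42420489, plus strand: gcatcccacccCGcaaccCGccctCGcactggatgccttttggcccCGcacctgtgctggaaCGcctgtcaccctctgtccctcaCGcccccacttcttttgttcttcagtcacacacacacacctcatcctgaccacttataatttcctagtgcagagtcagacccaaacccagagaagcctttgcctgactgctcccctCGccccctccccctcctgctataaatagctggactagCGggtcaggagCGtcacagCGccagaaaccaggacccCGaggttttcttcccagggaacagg
Gabrr1, chr4:33132306-33132605, plus strand: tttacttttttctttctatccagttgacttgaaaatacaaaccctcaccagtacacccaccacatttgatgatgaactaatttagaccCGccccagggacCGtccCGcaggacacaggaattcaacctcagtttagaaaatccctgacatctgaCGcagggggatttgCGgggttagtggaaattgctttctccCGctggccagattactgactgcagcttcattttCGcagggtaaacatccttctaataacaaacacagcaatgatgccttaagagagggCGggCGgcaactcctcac
Gabrp, chr11:33578908-33579207, minus strand: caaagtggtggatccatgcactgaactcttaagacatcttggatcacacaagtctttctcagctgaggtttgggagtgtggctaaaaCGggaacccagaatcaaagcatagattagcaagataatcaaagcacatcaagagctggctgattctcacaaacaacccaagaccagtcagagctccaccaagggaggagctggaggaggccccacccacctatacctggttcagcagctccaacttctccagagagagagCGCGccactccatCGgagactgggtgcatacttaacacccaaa
Gabra6, chr11:42321023-42321322, minus strand: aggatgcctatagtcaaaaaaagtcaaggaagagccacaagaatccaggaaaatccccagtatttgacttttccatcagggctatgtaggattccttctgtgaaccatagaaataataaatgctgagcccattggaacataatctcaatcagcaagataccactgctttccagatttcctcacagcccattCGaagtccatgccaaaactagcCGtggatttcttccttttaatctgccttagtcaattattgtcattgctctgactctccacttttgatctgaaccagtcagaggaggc
Gabrq, chrX:72824928-72825227, plus strand: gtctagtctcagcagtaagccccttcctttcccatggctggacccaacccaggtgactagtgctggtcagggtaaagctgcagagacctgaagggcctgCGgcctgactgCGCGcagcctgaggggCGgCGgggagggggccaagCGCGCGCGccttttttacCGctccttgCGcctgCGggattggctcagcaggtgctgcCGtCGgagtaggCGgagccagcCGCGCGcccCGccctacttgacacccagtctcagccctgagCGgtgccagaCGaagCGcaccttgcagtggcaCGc

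The window of Glrb held 30 CpGs and that of Gabrb2 11. Gabrr1 had 9, Gabrp 4 and Gabra6 only 2, while Gabrq had 23. These genes were picked by beta value, which is not calibrated between probes, and the brain values of Gabrp lay below its own Met_0.

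At the level of the whole set, the receptor probes were methylated much like the rest of the array. The median beta value over the 22 probes was 0.0998 in A2B5_mas and 0.0884 in PSA-NCAM_mas. Over all 382 probes it was 0.101 and 0.0970. In both brain arrays 14 of the 22 probes were low, meaning under 0.2 (63.6%), where 66% of all probes met this rule. None of the 22 was over 0.8 in both arrays, a level reached by 2.88% of all probes. Among the receptor probes reported singly, the mean of the brain arrays ran from 0.0586 at Glrb to 0.569 at Gabrr1. Among 18 ionotropic glutamate receptor probes, the excitatory counterparts, this mean had a median of 0.0802, and 15 were low in both arrays. The 3 other Cys-loop channels on the array had 2 low in both. The differences between these families were not tested.

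**Figure D1:**
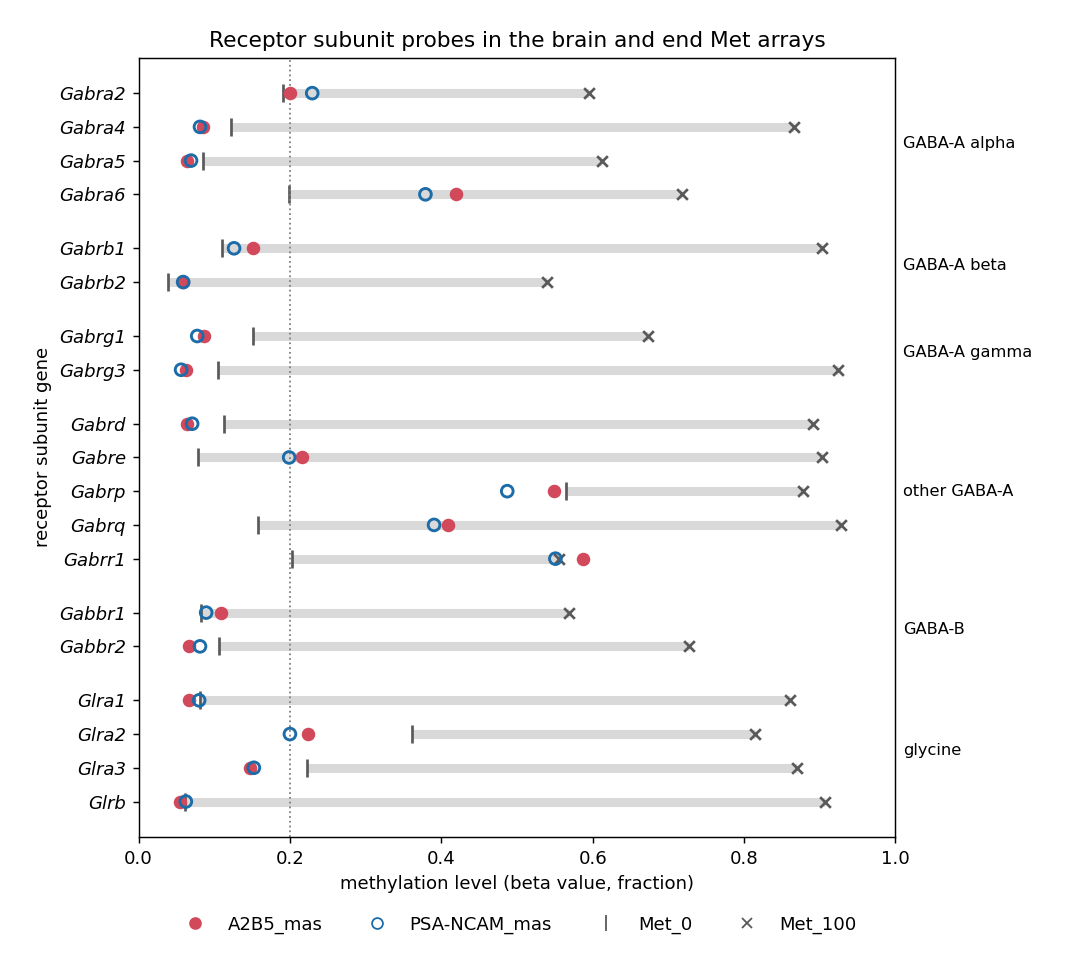
Beta value (x axis, fraction methylated) of 19 receptor subunit probes (rows, grouped by class) in A2B5_mas (filled circles), PSA-NCAM_mas (open circles), Met_0 (vertical ticks) and Met_100 (crosses), 1 array each, with a grey bar from Met_0 to Met_100 and a dotted line at 0.2. Most brain values sit at the Met_0 end, while Gabra6, Gabrp, Gabrq and Gabrr1 lie to the right, and the bar of Gabrp starts at a Met_0 value of 0.565.

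The alpha subunits shape the GABA and benzodiazepine binding sites. Gabra4, an extrasynaptic partner of the delta subunit in thalamus, was low with 0.0849 in A2B5_mas and 0.0811 in PSA-NCAM_mas. Gabra5, which mediates tonic inhibition in hippocampus, was also low, with 0.0643 and 0.0693. Both probes were within 0.05 of their Met_0 values, a gap smaller than that to any other Met array.

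Gabra2 and Gabra6 had higher beta values. Gabra2, a synaptic subunit of the forebrain, had 0.2004 in A2B5_mas, just above the limit, and 0.229 in PSA-NCAM_mas. Its Met_0 value was 0.190, so it too lay within 0.05 of Met_0, with curve readings of 0.779% and 3.03%. Gabra6, which is largely restricted to cerebellar granule cells, stood apart with 0.419 and 0.379. From Met_0 to Met_100 its values were 0.199, 0.519, 0.587, 0.620 and 0.718. Both brain values therefore lay between Met_0 and Met_25, and read off the probe's own Met curve they corresponded to 17.2% and 14.1%.

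The beta subunits complete the GABA site and carry sites for anaesthetics. Gabrb2, a widely used beta subunit of the adult brain, had 0.0584 in A2B5_mas and 0.0589 in PSA-NCAM_mas. Gabrb1 had 0.152 and 0.126. Both were under 0.2. Beta values of different probes have no common scale here, and on their own Met curves Gabrb2 read 4.47% and 4.58% and Gabrb1 1.87% and 0.72%.

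Gamma subunits anchor receptors at synapses and form the benzodiazepine site with an alpha subunit. In A2B5_mas Gabrg3 had 0.0631 and in PSA-NCAM_mas 0.0562. The values of Gabrg1 were 0.0864 and 0.0775. Both were low, and they differed from each other by less than 0.05 within either brain array.

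The other GABA-A subunits, several of them with restricted expression, had the highest median beta value of the 6 classes, 0.3997 for the mean of the brain arrays, with 1 of 5 low in both arrays. Gabrd, the delta subunit of extrasynaptic receptors in cerebellum and forebrain, was the low one at 0.0638 in A2B5_mas and 0.0708 in PSA-NCAM_mas. Gabre, the X-linked epsilon subunit found in hypothalamus and brainstem nuclei, had 0.216 and 0.199, on either side of the limit. Gabrq, the theta subunit from the same X-linked cluster, had 0.409 and 0.390. These subunits thus spanned the range from the bulk of the set to its intermediate values.

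Gabrp and Gabrr1 had the highest beta values in the brain arrays among the receptor probes. Gabrp, the pi subunit known mainly from uterus and other tissues outside the nervous system, had 0.549 in A2B5_mas and 0.487 in PSA-NCAM_mas. Its value in Met_0 was already 0.565, above both, so on its own Met curve Gabrp read 0% in both brain arrays, against 14.2% and 13.1% at Gabrq. Gabrr1, a rho subunit of retinal bipolar cells, had 0.587 and 0.551, ranking 44th of 382 by the mean of the brain arrays. Its Met_100 value was 0.555, so A2B5_mas exceeded and PSA-NCAM_mas nearly equalled the top of its Met range. The differences from Met_100 were 0.0320 and -0.00412, both within the SD of 0.0326. Its Met_25, Met_50 and Met_75 values were 0.516, 0.469 and 0.499, so nearness to Met_100 cannot tell full from partial methylation at this probe.

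The GABA-B subunits were both low. Gabbr1, which binds GABA, had 0.109 in A2B5_mas and 0.0893 in PSA-NCAM_mas. Gabbr2, which couples to the G protein, had 0.0663 and 0.0811. Their order of level was the same in both arrays, but their differences between the arrays ran in opposite directions, 0.0200 and -0.0149. Each was smaller than the SD, which is wide for this level. Over all 194 probes with a mean under 0.1, differences ran from -0.0343 to 0.0274, with a median absolute size of 0.00569.

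Of the glycine receptor subunits 3 of 4 were low in both arrays. Glrb, the beta subunit that ties the receptor to gephyrin, had 0.0547 in A2B5_mas and 0.0624 in PSA-NCAM_mas. Glra1, the adult alpha subunit of spinal cord and brainstem, had 0.0663 and 0.0800. Glra3, a subunit of dorsal horn and retina, had 0.147 and 0.152. Glra2, the X-linked subunit that predominates before birth, was highest with 0.224 and 0.19998, the latter just under the limit. Its Met_0 value, 0.361, was also the highest of the class.

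Against Met_0, the receptor probes divided evenly. In both brain arrays 11 of 22 were below their Met_0 value and 10 above, while over all probes 222 of 382 were below and 144 above. By at least 0.2 in both arrays, Gabrq and Gabrr1 were above Met_0 and none was below, against 14.9% and 6.81% of all probes. Gabrq exceeded Met_0 by 0.251 in A2B5_mas and by 0.232 in PSA-NCAM_mas, and Gabrr1 by 0.384 and 0.347. Gabra6 exceeded it by 0.220 in A2B5_mas but by 0.180 in PSA-NCAM_mas. Glra2 lay below Met_0, with differences of -0.137 and -0.161.

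The Met series shows how each receptor probe reads graded DNA. From Met_0 to Met_100 the median of the 22 probes was 0.111, 0.537, 0.604, 0.656 and 0.823. Met_100 exceeded Met_0 by 0.3 or more at 21 of 22, where 86.6% of all probes met this rule. The widest range was that of Glrb, from 0.0612 in Met_0 to 0.907 in Met_100, followed by Gabre, from 0.0781 to 0.904.

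A straight line in the title number was fitted to log2(beta / (1 - beta)) over all 382 probes with limma, with Benjamini-Hochberg adjustment over all of them. By this fit 18 of the 22 receptor probes rose at an adjusted p under 0.05, where 85.1% of all probes were called. The slope of Glrb was 6.16 ± 1.15 log2 units over the full series (SE, n = 5 arrays, limma adjusted p = 0.0118), and that of Gabrp, with its high start, 2.25 ± 0.68 (limma adjusted p = 0.0212). Those not called included Gabra2 (slope 2.36, limma adjusted p = 0.0504), Gabra5 (3.17, limma adjusted p = 0.0532) and Gabrr1 (1.79, limma adjusted p = 0.0928). Without Met_100 limma called 0 of the 22 and 0 of all probes, with 12 of the 22 at an unadjusted p under 0.05. The slopes stayed positive without it, at 6.00 for Glrb, 1.81 for Gabrp, 4.13 for Gabbr1 (3.51 with all arrays) and 6.50 for Gabrb1 (5.46 with all arrays). Nothing in the labels says that the Met arrays were prepared independently of each other, so these p-values measure only the scatter of the arrays around a line.

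The shape of the climb differed between receptor probes. By Met_25, Gabrb2 had covered 21.5% of its distance from Met_0 to Met_100, the least of the 22, with successive values of 0.0392, 0.147, 0.229, 0.296 and 0.540. Gabrp had covered 35.9% and Gabbr1 43.2%. At the other end Gabrr1 had covered 88.9%, Gabra5 85.1% and Gabbr2 84.6%, so that little of their range was left after Met_25, although Gabbr2 still went from 0.632 to 0.727. A beta value of 0.3 thus corresponds to a different title number at Gabrb2 than at Gabbr2.

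In all, 17 of 22 receptor probes were higher at each step of the series, as were 304 of all 382. Gabra2 reached 0.617 in Met_75 and then 0.595 in Met_100. Gabra5 had 0.543 in Met_50, 0.490 in Met_75 and 0.613 in Met_100. Gabre and Gabrr1 dipped between Met_25 and Met_50.

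**Figure D2:**
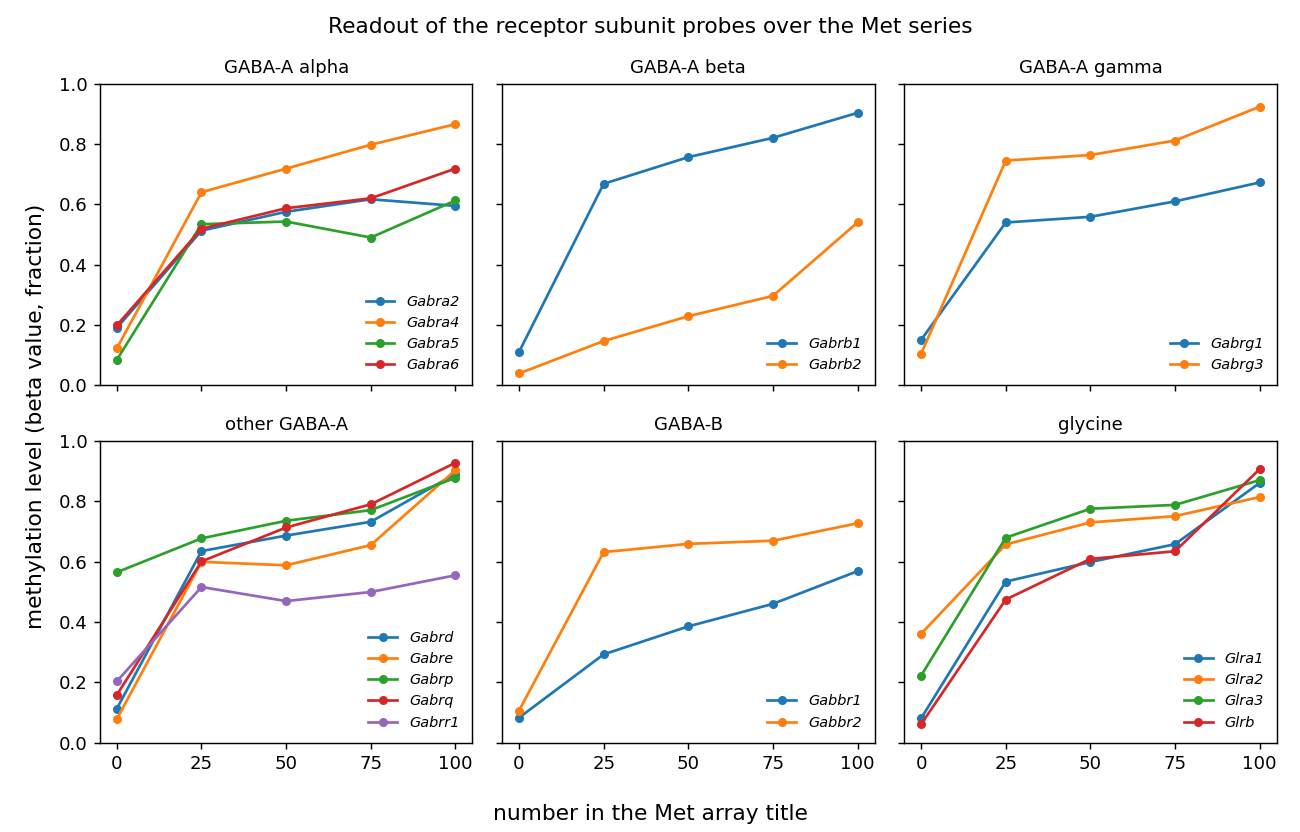
Beta value (y axis, fraction methylated) of 19 receptor subunit probes against the number in the Met array title (x axis), 1 panel per subunit class, 1 array per point. Most lines jump between Met_0 and Met_25, Gabrb2 climbs late to 0.540 in Met_100, and Gabrp starts at 0.565 in Met_0.

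Differences between the brain arrays were small at the receptor probes. The difference A2B5_mas minus PSA-NCAM_mas had a median of 0.00332 over the 22 probes, against 0.00429 over all 382, with 13 probes higher and 9 lower in A2B5_mas. Only Gabrp differed by 0.05 or more, and its difference was 0.0622. At this size 12% of all probes were higher in A2B5_mas and 0.785% lower, and no receptor probe was lower.

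The sizes of these differences went with the level of the probe. The 12 receptor probes with a mean under 0.1 differed by -0.0149 to 0.0200, and 6 of them were higher in A2B5_mas. From 0.4 to 0.8 lay Gabrp and Gabrr1, whose differences of 0.0622 and 0.0361 stand beside a median of 0.0593 over all 62 probes in this range, 57 of them higher in A2B5_mas. Gabrp was therefore close to the middle of the probes at its level. Gabra6 differed by 0.0400 and Gabrq by 0.0187, both from the range of 0.2 to 0.4, where the median over all 51 probes was 0.0228.

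Gabra2 ran the other way. Its difference was -0.0290, lower in A2B5_mas, where 38 of the 51 probes in its range were higher. It ranked 372nd of 382 when differences were ordered from highest to lowest. The size was within the SD of 0.0326 for a difference of 2 arrays. When the distributions of both brain arrays were made equal by quantile normalization, a step chosen after seeing the data, the difference of Gabra2 was -0.0425. The same step left Gabrp at 0.0159 and turned Gabrr1 to -0.0269 and Gabrq to -0.0250.

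**Figure D3:**
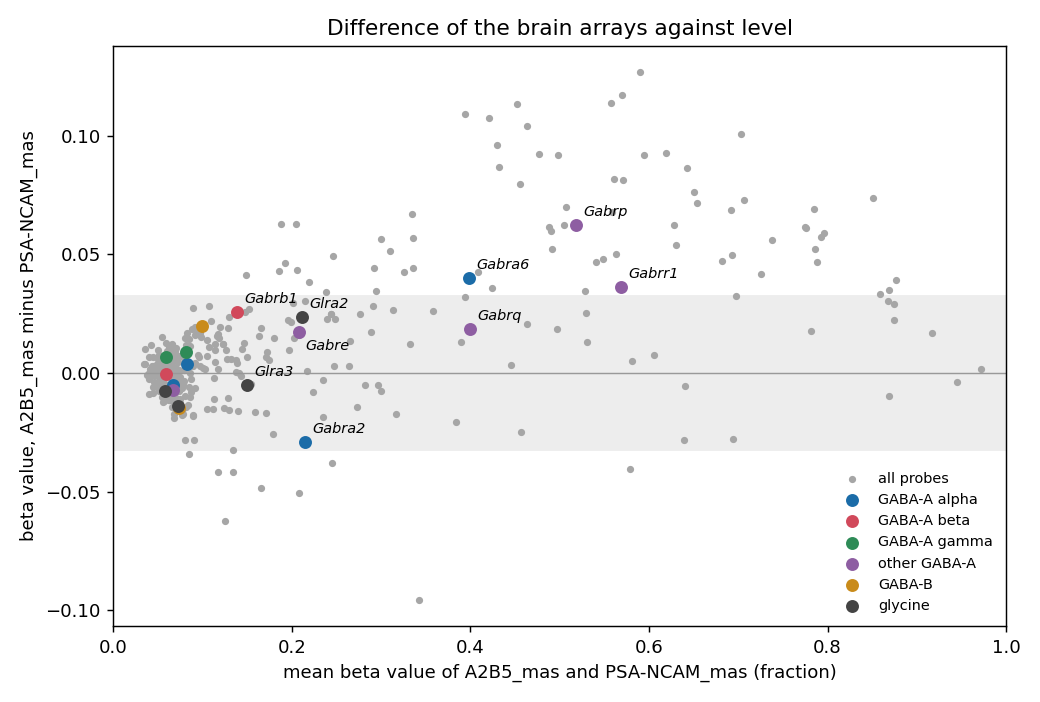
Difference in beta value, A2B5_mas minus PSA-NCAM_mas (y axis), against the mean of both arrays (x axis, fraction methylated) for all 382 probes (small grey points) and 19 receptor probes (coloured by class), with a grey band of 1 SD (0.0326) on either side of 0. Gabrp at 0.0622 lies within the cloud of intermediate probes, while Gabra2 lies below 0 at -0.0290.

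The receptor genes lie partly in clusters, and neighbours did not all share a level. In the chromosome 5 cluster of Gabrg1, Gabra2, Gabra4 and Gabrb1, the mean of the brain arrays ran from 0.0819 at Gabrg1 to 0.215 at Gabra2. The Met_0 values of these 2 probes were 0.151 and 0.190. In the chromosome 11 cluster Gabrb2 had 0.0586 and its neighbour Gabra6 0.399. In the chromosome 7 cluster Gabrg3 and Gabra5, which are not all of its genes but those reported singly, had 0.0596 and 0.0668. The 3 X-linked genes, Gabre, Gabrq and Glra2, had means of 0.208, 0.3997 and 0.212, and none was low in both arrays, against 14 of the 19 autosomal ones. Gabre and Glra2 missed the limit narrowly and in A2B5_mas alone, and under a limit of 0.3 the counts were 2 of 3 and 16 of 19. Glra2 also lay below its own Met_0 value of 0.361 in both arrays. The other X-linked array genes with a promoter window had means from 0.132 at Pou3f4 to 0.859 at Brs3. All of them but Pou3f4 and Grpr (0.139) had means over 0.2, so such a level was not particular to the X-linked receptor genes. Shares low in both arrays were not counted over all X-linked and autosomal probes. Because the sex of the animals is not stated, the part of X inactivation in these values was not tested.

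Receptor genes with fewer than 10 CpGs in the promoter window had a higher median brain level than the others. Within each of these 2 groups the level did not fall with the count. The Spearman correlation of CpG count and brain level was -0.334 over the 17 receptor genes. It was 0.29 over those with fewer than 10 CpGs and 0.224 over those with 10 or more, all without a test. Of the 14 autosomal receptor genes with a window, 5 held fewer than 10 CpGs and had a median brain level of 0.399. The other 9 held 10 or more, with a median of 0.0737. Their Met_0 medians were ordered alike, 0.203 over the 5 and 0.105 over the 9, and beta values are not calibrated between probes. With the X-linked genes included, the median brain levels were 0.305 over 6 receptor genes and 0.083 over 11. The array genes, receptor and X-linked genes included, had a median brain level of 0.323 over the 92 with fewer than 10 CpGs. The other 192 had a median of 0.0750, so this order of the receptor genes was also that of the array as a whole. Of the 5 autosomal receptor genes with fewer than 10 CpGs, Gabrg1 with 3 and a mean of 0.0819 was low in both arrays. So was Glra3 with 8 and a mean of 0.150. Gabrg1, Glra3 and Gabrp lay below their own Met_0 values in both arrays, whereas Gabra6 and Gabrr1 lay above theirs. Among the X-linked genes Gabrq with 23 CpGs and Gabre with 24 had means above 0.2 despite CpG-rich windows, though Gabre was under 0.2 in PSA-NCAM_mas. So did the autosomal Gabra2 with 25, whose Met_0 value was 0.190. Windows with fewer than 10 CpGs, counted on 1 strand since the dinucleotide reads alike on both, made up 35.3% of those of the receptor genes, 32.4% of those of the 284 array genes with a window and 56.5% of all RefSeq promoters.

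**Figure D4:**
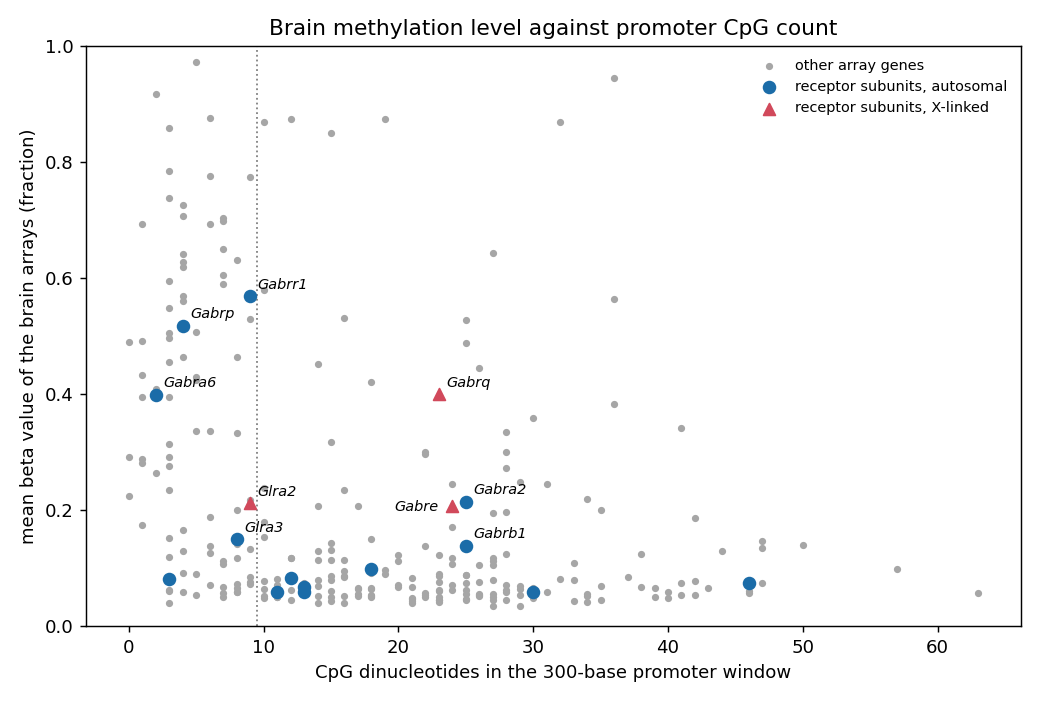
Mean beta value of A2B5_mas and PSA-NCAM_mas (y axis, fraction methylated) against the number of CpG dinucleotides in the 300-base promoter window (x axis) for the 17 receptor genes with a window (circles autosomal, triangles X-linked) and the other array genes (grey points), with a dotted line below 10 CpGs. Gabra6, Gabrp and Gabrr1 lie high at the left, most other receptor genes lie under 0.2, and Gabrq with 23 CpGs stands at 0.3997.

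Of 20 further genes of GABA and glycine synthesis, transport and anchoring listed for comparison, the array held only Slc12a2, the chloride importer that sets the direction of GABA currents in immature neurons. It was low, with 0.103 in A2B5_mas and 0.102 in PSA-NCAM_mas. Its Met_0 value was 0.293 and its Met_100 value 0.871, so it lay below Met_0 in both brain arrays, as did 11 of the receptor probes.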

How the data were processed

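The deposited table holds 382 probes on 7 arrays, and its unit was read as the fraction methylated (beta value), because all values lay between 0.0282 and 0.972. Per the labels' protocols, phenol extraction and Illumina's standard labelling were used. The sources used here do not name software, background correction, normalization or build. A background or scaling left in the values would move levels and differences alike. Depth does not apply, and precision is limited by 1 array per title.

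Members were taken by symbol, the probe ID before its last hyphen, and all 22 matched a RefSeq symbol (GRCm38.p6). Every member is named except 3, which are not reported here singly or drawn, though counts and medians over the set include them. The members, lists and sizes were chosen with earlier results of these data known. The Met slope was tested with limma 3.58.1 in R 4.3.3 on log2(beta / (1 - beta)) over all probes, without a filter. Levels and differences were compared by fixed sizes, with no test. Brain values were read off each probe's Met curve after isotonic regression (scikit-learn 1.9.0), with values below the curve read as 0. Other steps used Python 3.11.15, numpy 2.4.6 and pandas 2.3.3, and plots matplotlib 3.10.9. The code was tested on simulated data. Alternatives covered sizes and limits, scale, normalization, centring and the Met arrays.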

Additional observations from a re-analysis of the deposited data

How the results depend on the processing

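Leaving out 1 Met array at a time gave 0 to 21 receptor probes called as rising, the lowest without Met_100 and the highest without Met_25, against 18 with all 5. Beta values in place of the log2 scale gave 19 and an exact permutation of each slope 18. Quantile normalization over all 7 arrays, which forces the brain and Met arrays to 1 distribution, left 1 probe low in both brain arrays and 0 higher in A2B5_mas or above Met_0 by 0.2, with a median brain level of 0.417. On the scale of the Met curves, 21 of 22 probes were low in both brain arrays. Gabrr1, whose curve was nearly flat after Met_25, became the 1 probe high in both. The median brain level on this scale was 0.000186, as a fraction and not in percent as the curve readings above, and 0 probes were higher in A2B5_mas. The call of Gabrp could not hold on this scale, because both its brain values lay below Met_0 and read 0. Nor could it hold at sizes of 0.1 and 0.2, which exceed its difference of 0.0622. Quantile normalization of the brain arrays alone could have kept the call, but left a difference of 0.0159. Each of these gave 0 probes higher in A2B5_mas. At a size of 0.1, 2 probes lay below and 4 above Met_0 in both brain arrays. Of 50 recomputed counts and medians, 37 stayed within 1.5 times the main count or the array SD. These include counts of 0 that stayed at 0, such as every alternative for probes lower in A2B5_mas. They also include the median difference of 0.00332, judged against the far wider SD of 0.0326, although centring turned it to -0.000969. For such results the rule could hardly fail. No paired analysis was possible because no title has a replicate.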
